A study of Mus musculus with 53 samples.

Results

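Transcripts of 7 transcription factors of the oligodendrocyte lineage, Zfp488, Olig1, Olig2, Sox10, Sox8, Myrf and Nkx6-2, were examined across 4 brain regions in a mouse model of spinocerebellar ataxia type 3 (SCA3) and in its controls. The 7 were taken by symbol from the 12372 genes of the count table, and all 7 were found. They were chosen with the SCA3 against wild-type results of these libraries known, so the genotype differences of these 7 genes are given below as descriptions without p-values. The SCA3 animals were hemizygous MJD84.2 mice, in which a whole human ATXN3 gene, its CAG repeat expanded, is expressed ubiquitously from the human promoter, and the controls were wild-type C57BL/6 mice. All 14 animals (8 wild-type and 6 SCA3) were untreated males aged 74 to 77 weeks that had gone through motor testing earlier in life. RNA was sequenced from dissected brainstem (8 wild-type, 6 SCA3), cerebellum (7 and 6), cortex (7 and 6) and striatum (8 and 5), 53 libraries in all, so that most mice gave a library of each region.

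Oligodendrocytes arise from dividing precursors and wrap axons in myelin, and a small circuit of transcription factors carries them through these steps. Olig2 specifies the lineage and is kept on in mature cells, Olig1 supports maturation, Sox10 with the related Sox8 switches on myelin genes, and Myrf, a membrane-tethered factor that cuts itself free and enters the nucleus, is required to make and keep myelin. Nkx6-2 is a homeobox repressor present in maturing oligodendrocytes, and Zfp488 is a zinc finger co-regulator that works together with Olig2.

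The library totals were between 31680939 and 76703758 counts, which left at least 72 raw counts for Zfp488, the least abundant of the 7, in every library. Levels are given as CPM (the share of a library taken by a gene) after TMM scaling for differences in library composition, and differences as log2 fold changes with SE from one negative binomial model over all libraries. A gene was called at a false discovery rate (FDR) under 0.05 over all 12372 genes. In 5 libraries a score over thalamic marker genes was above 1, namely striatum of wild-type mice 7267058 (2.26) and 7267059 (2.84) and brainstem of wild-type mouse 7267055 (1.29) and SCA3 mice 9083514 (1.12) and 9083515 (1.24), where every other striatal library was at most 0.56. Values without these 5 are given beside the brainstem and striatum results that they moved most. RNA integrity (RIN) moved with genotype in brainstem, with a mean of 7.24 in wild-type and 7.78 in SCA3 libraries, and its part was examined with RIN as a covariate and in the libraries with a RIN of 7 or higher. In bulk tissue, fewer cells of a type and less RNA per cell cannot be told apart.

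The start regions of the 4 factors for which a RefSeq promoter was at hand are shown with the matches to binding motifs of the lineage's own factors. Each is the stretch before the transcription start, 5′ to 3′ on the gene's strand, from RefSeq on GRCm38.p6, and capitals mark E-boxes (CANNTG, bound by basic helix-loop-helix proteins such as the Olig factors), SOX cores (CAAAG or CAATG) and MYRF motifs (CTGGCAC or CTGGTAC), searched on both strands. The windows lie at chr14:33978765-33979014 (Zfp488, minus strand), chr17:25570687-25570936 (Sox8, minus strand), chr16:91225300-91225456 (Olig2, plus strand, stopping where its earliest annotated exon begins) and chr7:139582798-139583047 (Nkx6-2, minus strand).
Zfp488: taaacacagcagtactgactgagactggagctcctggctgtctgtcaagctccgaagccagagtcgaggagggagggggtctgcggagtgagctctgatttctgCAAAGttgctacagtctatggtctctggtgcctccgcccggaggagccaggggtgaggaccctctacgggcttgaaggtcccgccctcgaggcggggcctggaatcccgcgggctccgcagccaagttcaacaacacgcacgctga
Sox8: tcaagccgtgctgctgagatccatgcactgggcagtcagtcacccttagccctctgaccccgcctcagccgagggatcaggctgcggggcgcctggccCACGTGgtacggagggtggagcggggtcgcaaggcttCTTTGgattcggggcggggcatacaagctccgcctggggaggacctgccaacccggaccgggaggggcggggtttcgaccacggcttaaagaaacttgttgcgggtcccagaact
Olig2: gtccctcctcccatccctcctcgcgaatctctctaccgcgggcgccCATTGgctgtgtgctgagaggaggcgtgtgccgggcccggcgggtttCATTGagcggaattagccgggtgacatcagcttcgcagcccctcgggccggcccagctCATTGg
Nkx6-2: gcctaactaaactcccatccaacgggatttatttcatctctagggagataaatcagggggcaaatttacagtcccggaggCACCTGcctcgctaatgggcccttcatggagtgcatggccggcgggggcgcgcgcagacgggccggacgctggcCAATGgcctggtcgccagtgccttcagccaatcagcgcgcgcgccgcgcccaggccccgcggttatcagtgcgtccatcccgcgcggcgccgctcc

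Motifs were counted from 250 bases before to 50 bases after each start, and the same was done for all 32851 RefSeq promoters of that length. Olig2 held 4 SOX cores and no E-box, whereas Zfp488, Sox8 and Nkx6-2 each held 1 SOX core and 1 E-box. SOX cores were present in 70.3% and E-boxes in 72.3% of all promoters, with a median of 1 site each. Zfp488 alone of the 4 had a MYRF motif, which 7.1% of all promoters hold. It overlapped the gene's E-box 9 to 18 bases after the start, in the stretch gaaggacccgCAGCTGGTACactcaacctg. The homeobox core (TTAATT or TAATTA, in 13.1% of promoters) was in none of these 4 windows. All 4 were GC-rich, from 61.3% to 66.7% GC against a median of 52.7%, with 16 to 32 CpG dinucleotides against a median of 7. These matches are letters in a sequence, and binding was not measured here.

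In the GRCm38 annotation the 7 genes lie on 6 chromosomes. Olig2 (chr16:91225457-91228677) and Olig1 (chr16:91269772-91271933) are neighbours on the plus strand of chromosome 16, and Olig1 consists of a single exon. Zfp488 (chr14:33967070-33978764), Sox10 (chr15:79154908-79165240), Sox8 (chr17:25565892-25570686), Myrf (chr19:10208272-10240748) and Nkx6-2 (chr7:139579376-139582797) are on minus strands. The libraries kept no strand, and the counting tool in its default mode leaves out reads that fall on exons of several annotated genes. An antisense gene, 2810468N07Rik, shares 329 exonic bases with Sox8, 10.6% of its exon length. The noncoding Gm15966, which is not in the count table, shares 157 exonic bases with Olig1 (7.3%). Inpp5a overlaps 246 exonic bases of Nkx6-2 (12.9% of its exons over all annotated transcripts), but 0 in the basic transcript set, from which exon lengths were taken. The levels of these 3 factors are uncertain to that extent.

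Expression differed strongly between regions of wild-type brain, a comparison that had no part in choosing the genes. All 7 factors were lowest in cerebellum and next lowest in cortex, and 5 of them had their highest mean in brainstem and Sox8 in striatum. The mean of Zfp488 was also highest in striatum, but this rested on a single library with thalamic markers (9.99 CPM), and the medians of striatum and brainstem were 5.17 and 5.2 CPM. Of 42 tests (7 genes in 6 pairs of regions), 38 passed, among which all 7 factors were higher in brainstem than in cerebellum and cortex, and higher in striatum than in cerebellum and cortex. Region differences were common over the whole table, so these counts stand against a high background. The share of all genes called was 72.6% for brainstem against cerebellum, 65.4% for brainstem against cortex, 64.2% for brainstem against striatum, 69.7% for cerebellum against cortex, 69.5% for cerebellum against striatum and 34.4% for cortex against striatum. In sequence, the numbers of the 7 factors called in these pairs were 7, 7, 4, 6, 7 and 7.

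**Figure D1:**
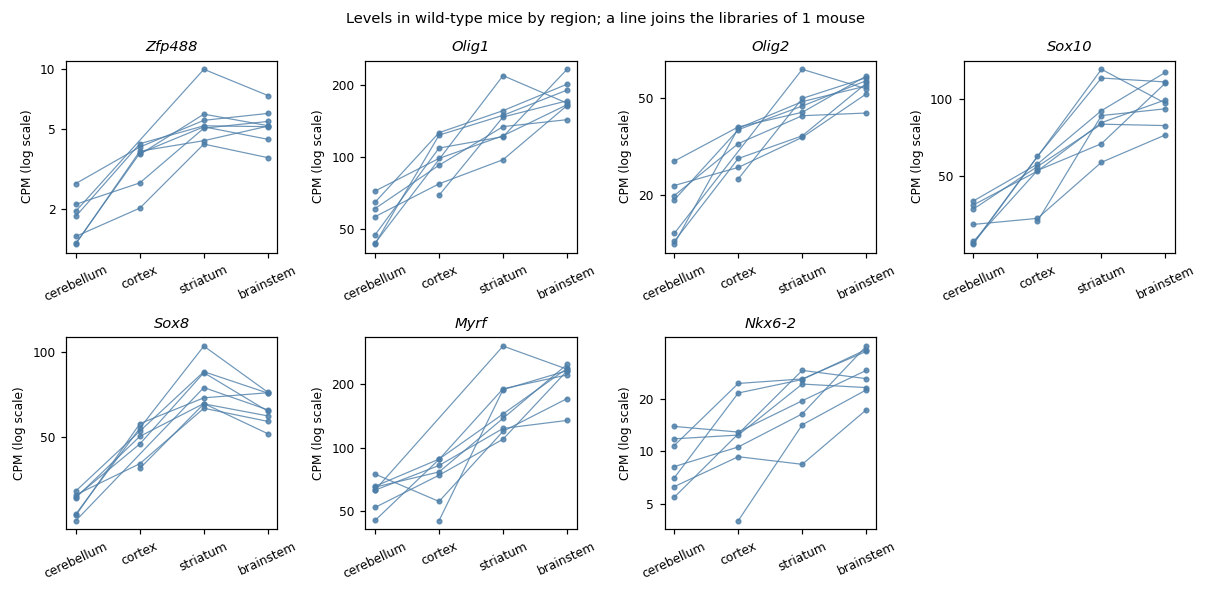
CPM (log scale) of the 7 factors in the wild-type libraries of each region, with a line joining the libraries of 1 mouse. Each factor was lower in cerebellum than in striatum in 7 of 7 mice with both libraries, and Sox8 falls from striatum to brainstem in 7 of 8 mice while Olig1 rises in 7 of 8.

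For the pair of basic helix-loop-helix factors, wild-type Olig1 was at 180.2 ± 27.9 CPM in brainstem (SD, n = 8), 143.8 ± 36.1 in striatum (n = 8), 99.6 ± 21.9 in cortex (n = 7) and 55.4 ± 11.2 in cerebellum (n = 7). Brainstem exceeded cerebellum by 1.70 ± 0.13 on the log2 scale (edgeR FDR 9.9e-33) and did so in 7 of 7 mice. Olig2 followed the same order at lower levels, 55.8 ± 5.9, 45.8 ± 9.94, 31.8 ± 6.09 and 18.2 ± 5.55 CPM. The step from striatum to brainstem passed for Olig1 (0.33 ± 0.13, edgeR FDR 0.02, higher in 7 of 8 mice) and not for Olig2 (0.28 ± 0.13, edgeR FDR 0.053, also higher in 7 of 8 mice). The Olig1 call was lost in libraries with a RIN of 7 or higher (edgeR FDR 0.089) and without wild-type mouse 7267055 or 9083375 (edgeR FDR 0.063 and 0.13). Of the 4 factors called for this pair of regions, 1 was called, Sox8, with a RIN of 7 or higher or without mouse 9083375, and 2 were called in a fit of the compared groups alone or without wild-type mouse 7267055, 9082857 or 9083372.

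The SoxE factors differed from each other in their order of regions. Sox10 was at 99.7 ± 19.0 CPM in brainstem and 89.0 ± 25.1 in striatum, a difference that did not pass (log2 0.16 ± 0.13, edgeR FDR 0.28, higher in 5 of 8 mice), and fell to 49.0 ± 10.6 in cortex and 33 ± 5.64 in cerebellum. Sox8 instead peaked in striatum with 76.4 ± 14.2 CPM. Brainstem had 63.2 ± 7.72, cortex 48.2 ± 6.62 and cerebellum 28.9 ± 2.76 CPM. Its brainstem level lay 0.27 ± 0.10 below striatum on the log2 scale (log2 fold change -0.27, edgeR FDR 0.011, lower in 7 of 8 mice). The antisense 2810468N07Rik had 45.1 ± 8.54 CPM in striatum and 37.8 ± 6.82 in brainstem, the same order as Sox8.

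Myrf showed the widest range, from 213.3 ± 39.5 CPM in brainstem to 164.3 ± 63.2 in striatum, 72.9 ± 16.5 in cortex and 61.4 ± 9.73 in cerebellum. Its brainstem level was 1.8 ± 0.16 above cerebellum and 1.55 ± 0.16 above cortex on the log2 scale (edgeR FDR 2.2e-26 and 6.7e-20). The difference between cerebellum and cortex did not pass (-0.25 ± 0.16, edgeR FDR 0.16). The large SD in striatum came with wild-type mouse 7267059, a library with thalamic markers, whose 302.0 CPM stood above the 109.7 to 190 CPM of the other striata. Without the 5 such libraries 39 region tests passed, and the brainstem and striatum levels of Olig2 and Sox10 then differed while Nkx6-2 no longer differed between cortex and striatum (edgeR FDR 0.078).

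Nkx6-2 fell from 29.3 ± 8.44 CPM in brainstem to 20.5 ± 7.08 in striatum, 13.6 ± 7.12 in cortex and 9.07 ± 3.15 in cerebellum. Among the tests that passed, it had the 3 weakest, with an edgeR FDR of 0.043 for brainstem over striatum, 0.029 for cerebellum against cortex and 0.047 for cortex against striatum. Leaving out 1 mouse at a time, these 3 calls were kept in 6, 11 and 3 of 14 runs. With the mouse as a random replicate block, which pairs the regions of each animal, Nkx6-2 missed the call between cerebellum and cortex (limma-voom FDR 0.068) and Olig2 gained that between brainstem and striatum, so that 38 of 42 tests passed again. The same calls moved with limma-voom without the block, and none moved with the mouse as a fixed block in edgeR.

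Zfp488 was scarce in wild-type brain, with means of 5.69 ± 1.83 CPM (striatum), 5.3 ± 1.1 (brainstem), 3.48 ± 0.819 (cortex) and 1.81 ± 0.488 (cerebellum). The difference between striatum and brainstem did not pass (log2 -0.10 ± 0.16 for brainstem over striatum, edgeR FDR 0.59). Brainstem was higher in 3 of 8 mice, and the difference was 0.07 without the 5 libraries with thalamic markers. Both regions exceeded cortex (log2 0.61 ± 0.17 for brainstem over cortex, edgeR FDR 0.00061, and -0.71 ± 0.16 for cortex over striatum, edgeR FDR 0.0002). Its mean over all wild-type libraries, 4.15 CPM without TMM scaling, was just above the minimum of 4 CPM for entry into the table.

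Set on a common scale by dividing by exon length, Olig1 was the most abundant of the 7 in wild-type brainstem, at 83.4 ± 12.9 CPM per kilobase of exon. Myrf (37.6 ± 6.96) and Sox10 (35.9 ± 6.83) came next and lay within each other's SD, as did Nkx6-2 (22.5 ± 6.50), Olig2 (22.1 ± 2.33) and Sox8 (20.3 ± 2.48). Zfp488 was far below at 1.23 ± 0.256 CPM per kilobase, and in SCA3 brainstem it reached 4.24 ± 0.372.

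Between genotypes, Zfp488 was higher in SCA3 mice in every region, Olig1 and Sox8 had positive log2 fold changes in every region, and Olig2 had them in brainstem, cerebellum and cortex. Those of Nkx6-2 were positive as well, but its direction was not kept in cortex and striatum, as described for that gene. The wild-type and SCA3 ranges of Olig1, Olig2 and Sox8 were apart in brainstem and overlapped in the other regions. For Sox10, Myrf and Nkx6-2 they overlapped in every region. Of 28 values (7 genes in 4 regions), 8 had an FDR under 0.05 and all 8 were higher in SCA3. These were 4 of 7 in brainstem, 1 in cerebellum, 1 in cortex and 2 in striatum, and the share of all genes called in these regions was 1.92%, 0.0647%, 0.154% and 7.54%. Since the genes were selected on this contrast, nothing is read from these counts. The median log2 fold change of the 7 was 0.49 in brainstem, 0.22 in cerebellum, 0.35 in cortex and 0.06 in striatum, where the median over all genes was within 0.004 of 0.

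**Figure D2:**
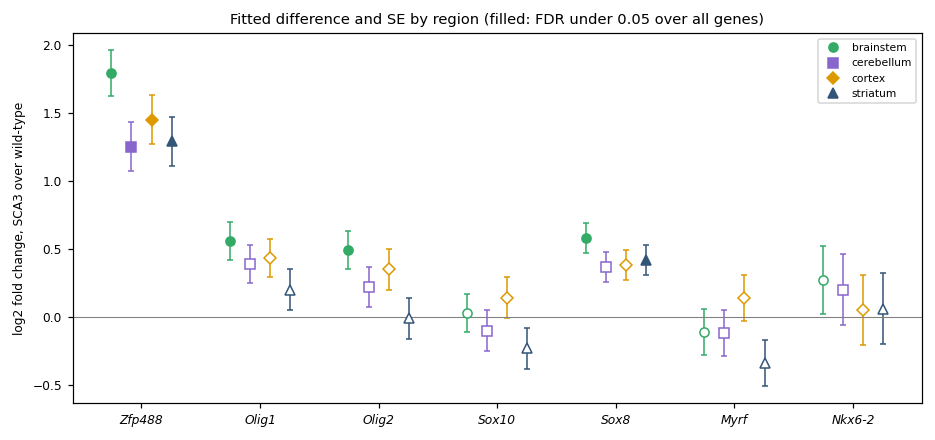
Fitted log2 fold change, SCA3 over wild-type, with SE, for each factor in each region, with filled symbols for an FDR under 0.05 over all genes. Zfp488 lies between 1.25 and 1.79 in the 4 regions, and Sox10, Myrf and Nkx6-2 lie between -0.34 and 0.27.

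In brainstem, Zfp488 was at 3.6, 5.2 and 7.38 CPM (lowest, median and highest) in wild-type mice and at 16.5, 18.0 and 21.1 CPM in SCA3 mice. In cerebellum the same 3 values were 1.33, 1.83 and 2.67 CPM against 3.13, 4.02 and 6.20 CPM. In cortex they were 2.01, 3.79 and 4.23 CPM against 7.23, 9.25 and 12.0 CPM. In striatum wild-type mice had 4.21, 5.17 and 9.99 CPM, and the 5 SCA3 mice had 11.8, 13.2, 13.8, 14.5 and 16.2 CPM. Every SCA3 library was thus above every wild-type library of its region, and Zfp488 was the only one of the 7 for which this held in all 4 regions. The fold changes were 3.45 in brainstem, 2.38 in cerebellum, 2.74 in cortex and 2.45 in striatum (log2 1.79 ± 0.17, 1.25 ± 0.18, 1.45 ± 0.18 and 1.29 ± 0.18). Without the 5 libraries with thalamic markers the striatal difference was 1.5. The mouse numbers fall into series, and within the series of SCA3 mouse 9083513 the log2 differences were 2.04, 1.56, 1.52 and 1.44 in brainstem, cerebellum, cortex and striatum. Within the series of SCA3 mouse 7267054 they were 1.49, 0.8, 1.36 and 0.95, and there the cerebellar FDR was not under 0.05. The latter series held SCA3 mice 7267054 and 7267056 and wild-type mice 7267055, 7267058 and 7267059, without a cerebellum of 7267058 and a cortex of 7267059. The former held 9083371, 9083372, 9083373 and 9083375 (wild-type, 75 weeks) and 9083513, 9083514 and 9083515 (SCA3, 74 weeks), without a striatum of 9083513. Age thus went with genotype in the former.

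**Figure D3:**
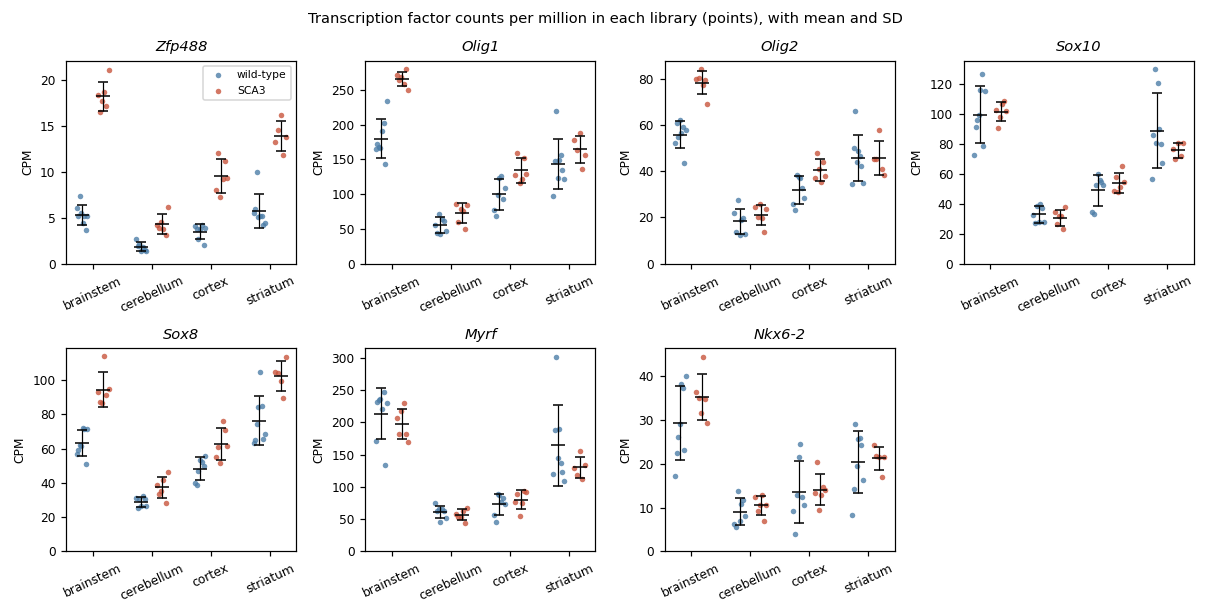
CPM of each factor in every library (points), with mean and SD, by region and genotype. SCA3 points of Zfp488 lie above all wild-type points in each region, those of Olig1, Olig2 and Sox8 do so in brainstem, and those of Sox10, Myrf and Nkx6-2 overlap with wild-type throughout.

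Olig1, the maturation factor, was at 143.6, 170.4 and 233.6 CPM in wild-type brainstem and at 250.4, 266.9 and 280.7 CPM in SCA3 brainstem, so that the ranges were apart. The log2 difference was 0.56 ± 0.14, and it was 0.39 ± 0.14 in cerebellum, 0.43 ± 0.14 in cortex and 0.20 ± 0.15 in striatum. The striatal value was 0.34 without the 5 libraries with thalamic markers, 0.31 without wild-type mouse 7267059, 0.36 with the thalamic score as a covariate and 0.10 with a RIN of 7 or higher. In cerebellum and in cortex 4 of 6 SCA3 libraries stood above the highest wild-type library, and in striatum none of 5 did. The highest wild-type striatum, at 219.7 CPM, was again mouse 7267059. Within the mouse number series the brainstem difference was 0.45 (series of mouse 9083513) and 0.66 (series of mouse 7267054), and in neither was its FDR under 0.05. The cortical difference was 0.25 and 0.97 in the same series.

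Olig2, the lineage specifier, had 43.5, 57.0 and 61.9 CPM in wild-type and 68.8, 79.5 and 84.2 CPM in SCA3 brainstem, which also did not overlap (log2 0.49 ± 0.14). In the other regions its ranges overlapped, with differences of 0.22 ± 0.15 in cerebellum, 0.35 ± 0.15 in cortex and -0.01 ± 0.15 in striatum, which became 0.12 without the libraries with thalamic markers. The brainstem difference of Olig2 stayed between 0.44 and 0.52 when single mice were left out, but its FDR was under 0.05 in only 4 of 14 such runs. It was not under 0.05 with edgeR's quasi-likelihood test, with RIN as a covariate, with a RIN of 7 or higher, without the libraries with thalamic markers, or within either number series. The cortical difference of Olig2 was 0.21 within the series of mouse 9083513 and 0.79 within that of mouse 7267054.

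Sox8 was at 51.2, 61.9 and 71.8 CPM in wild-type and at 86.8, 92.2 and 114.1 CPM in SCA3 brainstem, with no overlap (log2 0.58 ± 0.11). In striatum the wild-type values were 63.0, 71.6 and 104.6 CPM and the 5 SCA3 values were 89.6, 99.7, 103.9, 105 and 113.3 CPM, overlapping at the upper end of wild-type (0.42 ± 0.11). Cerebellum and cortex gave 0.37 ± 0.11 and 0.38 ± 0.11, with 5 of 6 and 4 of 6 SCA3 libraries above the highest wild-type one. Its striatal FDR was no longer under 0.05 without SCA3 mouse 9083515, or without the libraries with thalamic markers, where the difference was 0.38. The same held with a RIN of 7 or higher (0.34), with the thalamic score as a covariate (0.38), in a fit of the compared groups alone (0.42) and in the series of mouse 9083513 (0.33). The overlapping antisense gene had 37.8 ± 6.82 CPM in wild-type and 48.1 ± 5.72 in SCA3 brainstem, and its part in the Sox8 counts was not tested.

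Sox10, which drives myelin genes together with Myrf, lay at 72.5, 97.7 and 127.0 CPM in wild-type and 90.9, 102.3 and 108.7 CPM in SCA3 brainstem. The SCA3 libraries fell inside the wild-type range. The log2 differences were 0.03 ± 0.14 in brainstem, -0.10 ± 0.15 in cerebellum, 0.14 ± 0.15 in cortex and -0.23 ± 0.15 in striatum. Without the libraries with thalamic markers they were -0.06 in brainstem and -0.12 in striatum, and without mouse 7267059 alone the striatal value was -0.13. The cortical value was 0.03 within the series of mouse 9083513 and 0.65 within that of mouse 7267054.

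Myrf was at 134.5, 230.9 and 247.4 CPM in wild-type and 169.8, 194.3 and 229.4 CPM in SCA3 brainstem, and its differences were -0.11 ± 0.17, -0.12 ± 0.17, 0.14 ± 0.17 and -0.34 ± 0.17 in brainstem, cerebellum, cortex and striatum. In striatum the 5 SCA3 values of 113.0, 118, 129.8, 135 and 155.5 CPM lay within the wild-type range of 109.7 to 302.0 CPM. Without the libraries with thalamic markers the striatal difference shrank to -0.08. The cortical difference of Myrf was 0.12 and 0.71 within the series of mice 9083513 and 7267054. Nkx6-2 lay at 17.3, 27.6 and 40.1 CPM in wild-type and 29.3, 35.0 and 44.4 CPM in SCA3 brainstem, with differences from 0.05 ± 0.26 in cortex to 0.27 ± 0.25 in brainstem. The brainstem value was 0.14 with RIN as a covariate, and 0.06 and 0.70 within the series of mice 9083513 and 7267054. Its cortical difference ranged from -0.11 to 0.26 when single mice were left out and was -0.32 within the series of mouse 9083513 and 1.34 within that of mouse 7267054. Its striatal difference of 0.06 ± 0.26 became -0.2 with a RIN of 7 or higher and -0.26 in the series of mouse 9083513.

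Since the 7 genes were chosen on this contrast, no test of whether it varied with region is given for them, and the larger brainstem values are a description.

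The factors were next set against mature oligodendrocyte RNA. The summed level of 20 mature markers (among them Mbp and Mag) had a median of 21677.8 CPM in wild-type and 13920.6 CPM in SCA3 brainstem, and of 10033.5 and 7726.7 CPM in striatum, with overlapping ranges in all 4 regions. All 20 were measured, and 4 were called in brainstem and 7 in striatum, all lower in SCA3, where 1.92% and 7.54% of all genes were called. In brainstem Aspa, which breaks down N-acetylaspartate, fell from 66.1 ± 13.2 to 35.3 ± 8.35 CPM (log2 -0.90 ± 0.20, edgeR FDR 0.0014), the galactolipid enzyme Ugt8a from 244.1 ± 62.9 to 137.2 ± 40.6 CPM (-0.83 ± 0.19, edgeR FDR 0.0035), and the myelin membrane gene Mal by 0.65 on the log2 scale (edgeR FDR 0.025). Mal was not called in brainstem with RIN as a covariate (log2 -0.6, edgeR FDR 0.078) or with a RIN of 7 or higher (-0.59, edgeR FDR 0.075). In striatum Mal, Mobp and Cldn11 were among those called (log2 -0.80, -0.81 and -0.67, edgeR FDR 0.0033, 0.0085 and 0.013). None of these 3 was called with a RIN of 7 or higher (log2 -0.72, -0.81 and -0.62, edgeR FDR 0.062, 0.064 and 0.097). The same held in a fit of the compared groups alone (log2 -0.80, -0.81 and -0.67, edgeR FDR 0.12, 0.16 and 0.15). The list medians were -0.29 in brainstem, -0.14 in cerebellum, 0.11 in cortex and -0.42 in striatum, against 0.003, -0.004, -0.002 and -0.003 over all genes. Without the 5 libraries with thalamic markers 3 markers were called in brainstem and 0 of 20 in striatum, where the list median was then -0.04.

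Levels were also expressed per unit of this marker RNA. In brainstem Olig1 was at 6.81, 8.45 and 12.6 CPM per 1000 CPM of marker RNA in wild-type and 14.2, 19.4 and 24.2 in SCA3 mice, and Zfp488 at 0.195, 0.262 and 0.460 against 0.976, 1.25 and 1.92. The ranges of this ratio did not overlap for Zfp488 in any region, for Olig1 and Sox8 in brainstem, cerebellum and striatum, and for Olig2 in brainstem. The ratios of Sox10, Myrf and Nkx6-2 overlapped in every region. The SCA3 median of the ratio was still above the wild-type median for every factor in every region. In striatum it was 15.9 against 13.6 for Myrf, whose CPM had a log2 difference of -0.34 there. A ratio moves with its denominator as well, and the median of that denominator was lower in SCA3 brainstem, striatum and cerebellum (4754.2 against 5707.9 CPM in cerebellum). In cerebellum and striatum, the CPM of Olig1 and Sox8 overlapped between genotypes although the ratios did not. Without the libraries with thalamic markers, the marker sum had a median of 22836.3 CPM in 7 wild-type and 16628.7 CPM in 4 SCA3 brainstems, and the highest SCA3 ratios were lower (20.8 for Olig1 and 1.30 for Zfp488). The ratios named above as not overlapping in brainstem and striatum stayed apart, and those of Myrf in brainstem were then apart as well (at most 11.8 in wild-type and at least 12.0 in SCA3). With a mature marker score as a covariate, 4 factors had an FDR under 0.05 in brainstem and 3 in each other region. The share of all genes called was then 2.99% (brainstem), 0.412% (cerebellum), 0.736% (cortex) and 8.27% (striatum), in each region more than without the covariate. The factors were chosen on this contrast, so nothing is read from these counts. With that covariate the Zfp488 differences were 1.92, 1.31, 1.41 and 1.46 in brainstem, cerebellum, cortex and striatum.

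**Figure D4:**
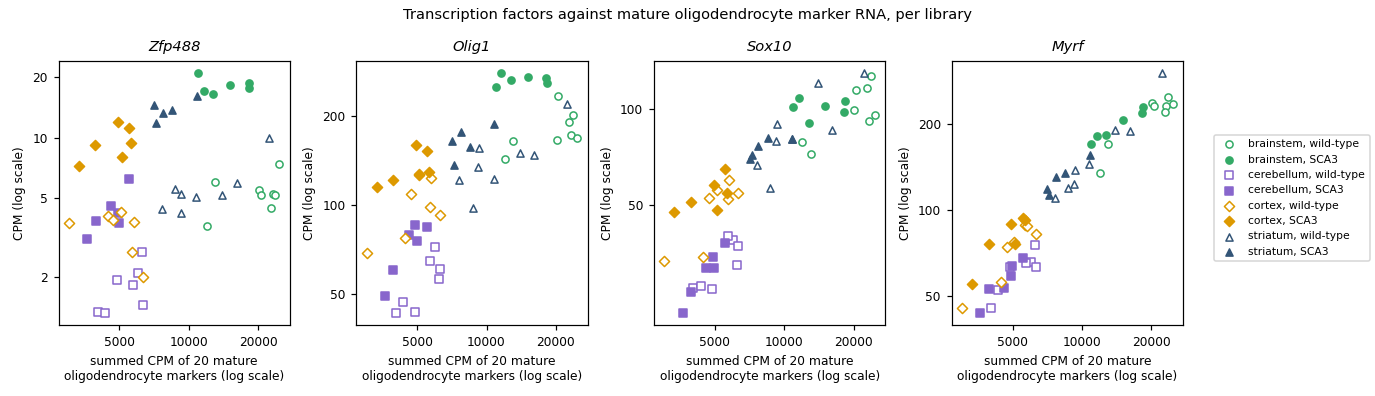
CPM of Zfp488, Olig1, Sox10 and Myrf against the summed CPM of 20 mature oligodendrocyte markers (both log scales), 1 point per library, coloured by region and filled for SCA3. Myrf follows the marker sum across all libraries, while SCA3 points of Zfp488 lie above the wild-type points of the same region.

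Markers of earlier stages were counted in the same way. Of 16 precursor and premyelinating genes 15 were measured, and 1 was called in brainstem, 1 in cortex and 2 in striatum, each higher in SCA3, against 1.92%, 0.154% and 7.54% of all genes. The premyelinating choline phosphodiesterase Enpp6 was at 5.66 ± 1.23 CPM in wild-type and 13.5 ± 1.96 CPM in SCA3 cortex (log2 1.25 ± 0.20, edgeR FDR 1e-06), and at 14.6 ± 5.06 against 24.8 ± 4.77 CPM in striatum (0.76 ± 0.20, edgeR FDR 0.0059). The striatal call of Enpp6 was lost in a fit of the compared groups alone (edgeR FDR 0.067) and within the series of mice 9083513 and 7267054 (log2 0.85 and 0.32, edgeR FDR 0.22 and 0.59). The matrix protein genes Matn4 in brainstem (0.68 ± 0.16, edgeR FDR 0.0019) and Vcan in striatum (0.41 ± 0.12, edgeR FDR 0.014) were the others. The list medians were 0.20, 0.01, 0.10 and -0.01 in brainstem, cerebellum, cortex and striatum. Without the 5 libraries with thalamic markers Matn4 and Vcan were not called (log2 0.59 and 0.41, edgeR FDR 0.094 and 0.059). Vcan was also not called with a RIN of 7 or higher (0.43, edgeR FDR 0.081) or with the compared groups alone (0.41, edgeR FDR 0.072).

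Genes that act with the 7 factors, such as their dimer partners, chromatin enzymes and other lineage regulators, form a list of 42, of which 41 were measured. Calls were found in striatum, for 2 of 41 genes where 7.54% of all genes were called, and 0 of 41 were called in the other regions, whose shares over all genes were 1.92% or less. The 2 were the zinc finger gene Zfp365 higher (log2 0.57 ± 0.17, edgeR FDR 0.017) and the histone deacetylase Hdac11 lower (-0.31 ± 0.09, edgeR FDR 0.025). Neither was called without the 5 libraries with thalamic markers (log2 0.44 and -0.31, edgeR FDR 0.15 and 0.066). The same held with a RIN of 7 or higher (0.47 and -0.3, edgeR FDR 0.21 and 0.14). The number of calls on this list varied from 0 to 6 when single mice were left out. The list medians were 0.11, 0.01, 0.09 and 0.06.

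Among 25 genes of signals that reach the lineage from outside, all measured, 4 were called in brainstem and 4 in striatum, against 1.92% and 7.54% of all genes. The receptor Notch1, which holds precursors back from maturing, rose from 39.0 ± 4.09 to 53.3 ± 4.43 CPM in brainstem (log2 0.45 ± 0.08, edgeR FDR 4.1e-05). The fibroblast growth factor receptor Fgfr2, which oligodendrocytes use in myelin growth, fell in brainstem (-0.59 ± 0.13, edgeR FDR 0.0012) and striatum (-0.55 ± 0.14, edgeR FDR 0.0045). Fgfr3 (brainstem -0.29 ± 0.07, striatum -0.24 ± 0.08, edgeR FDR 0.013 and 0.042) and Egfr (brainstem -0.31 ± 0.09, edgeR FDR 0.028) were also lower. In striatum the hedgehog transducer Smo was lower (-0.41 ± 0.13, edgeR FDR 0.025) and the Wnt co-receptor Lrp6 higher (0.21 ± 0.07, edgeR FDR 0.042). The list medians were -0.02, -0.01, 0.04 and -0.07. With RIN as a covariate neither Fgfr3 nor Egfr was called in brainstem (edgeR FDR 0.061 and 0.11), and without the 5 libraries with thalamic markers Smo, Fgfr3 and Lrp6 were not called in striatum (edgeR FDR 0.24, 0.2 and 0.16). With a RIN of 7 or higher, Egfr in brainstem and Fgfr2, Smo, Fgfr3 and Lrp6 in striatum were not called (edgeR FDR 0.075, 0.065, 0.1, 0.11 and 0.34). Their log2 differences were then -0.29, -0.51, -0.43, -0.27 and 0.15.

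Markers of other cell types were read against the same shares of all genes, 1.92% in brainstem and 7.54% in striatum. Of 12 astrocyte markers, which include Fgfr3, 5 were called in brainstem and 5 in striatum, all lower in SCA3, led by the glutamate transporter Slc1a2 in brainstem (log2 -0.83 ± 0.12, edgeR FDR 2.4e-08) and the gap junction gene Gja1 in both regions (-0.58 ± 0.11 and -0.47 ± 0.11). The summed astrocyte markers ranged from 4892.8 to 10061.7 CPM in wild-type and from 4378.6 to 6330.5 CPM in SCA3 brainstem. Without the 5 libraries with thalamic markers, 4 astrocyte markers were called lower in brainstem and 1 was called in striatum, where it was higher. With RIN as a covariate 3 were called in brainstem (list median -0.26, against -0.37 without the covariate), and with a RIN of 7 or higher 4 were called in brainstem and 0 in striatum. Of 12 microglial and 12 neuronal markers 1 each was called lower (P2ry12 in brainstem and Stmn2 in striatum), a count near the share of all genes for the neuronal markers, and of 10 endothelial markers and the 2 of 5 choroid plexus markers in the table none was. In cerebellum the summed level of the 2 choroid plexus markers, Ttr and Clic6, ranged from 17.1 to 2051.1 CPM in wild-type (median 134.8) and from 633.4 to 1929.9 CPM in SCA3 mice (median 1104.4). Their part in the cerebellar values of the 7 factors was not tested. Of 12 thalamic markers 11 were measured, and 6 were called lower in SCA3 striatum with a list median of -1.29. With those 5 libraries left out, among them the 2 wild-type striata, 1 was called lower and the list median was 0.06. With all libraries the quasi-likelihood test called 3, and limma-voom called 1 with a list median of -0.5. The part of these cell types in the levels of the 7 factors was not tested beyond the comparisons without the 5 libraries and with the thalamic score as a covariate.

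How the 7 factors vary from library to library was described after subtracting the mean of each region and genotype, so that neither contrast enters. The points are 53 libraries that share animals and dissections, and no p is given. Over 21 pairs of factors the median correlation of log2 CPM was 0.62. Olig1 went most closely with Sox10 (r = 0.87), Olig2 (0.84) and Nkx6-2 (0.80), and Sox10 with Myrf reached 0.81. Zfp488 had r from 0.11 (Nkx6-2) to 0.52 (Myrf), and all other pairs from 0.44 to 0.87. Without the 5 libraries with thalamic markers, Zfp488 had 0.08 with Nkx6-2 and 0.42 with Myrf, and Sox10 with Sox8 went from 0.76 to 0.85.

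**Figure D5:**
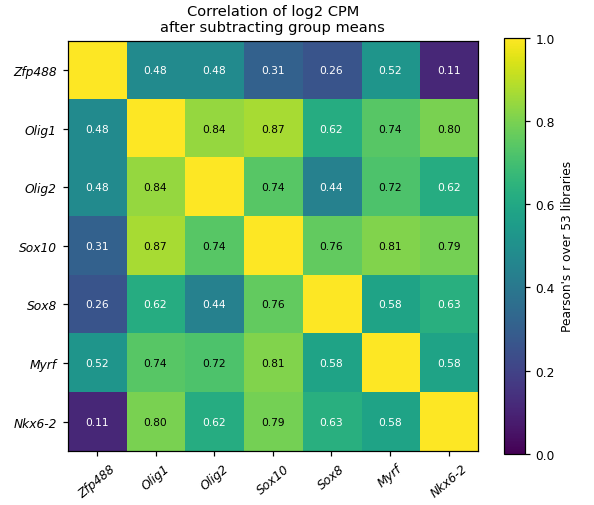
Pearson's r between the 7 factors over 53 libraries, from log2 CPM after subtracting the mean of each of the 8 groups. The row of Zfp488 runs from 0.11 to 0.52, the other pairs from 0.44 (Olig2 with Sox8) to 0.87 (Olig1 with Sox10).

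The genes most like each factor, other than the factors themselves, included several myelin genes. Myrf went with Tmem63a (r = 0.96) and the myelin genes Mag and Mobp (0.95 each), and with the score of mature markers at 0.95. Sox10 went with Prr18 (0.93) and the plasmolipin gene Pllp (0.90), and Olig1 with Prr18 (0.85), Fbxo7 (0.85) and B3gnt9 (0.83). Olig2 went with Qdpr (0.82), which recycles tetrahydrobiopterin, the potassium channel gene Kcnk13 (0.80) and Phlda3 (0.80). Nkx6-2 went with Gpr62 (0.82), Ppp1r14a (0.79) and the neuregulin receptor gene Erbb3 (0.79). Sox8 went with Prima1 (0.82), which anchors acetylcholinesterase, Col11a2 (0.79) and its overlapping antisense 2810468N07Rik (0.78).

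Zfp488 had other neighbours. Its nearest genes were the protease gene Ctso (r = 0.77), the sialidase gene Neu4 (0.77), which is on the precursor and premyelinating list, and Plxdc2 (0.74). Its correlation with the precursor and premyelinating score was 0.68 and with the mature marker score 0.40, whereas the 6 other factors had 0.32 (Myrf) to 0.58 (Olig1) with the former and 0.55 (Sox8) to 0.95 (Myrf) with the latter. Over the same libraries Zfp488 had 0.58 with the astrocyte, 0.61 with the microglial and 0.51 with the thalamic marker score. Without the 5 libraries with thalamic markers Ctso and Neu4 were at 0.79 and 0.77, and the scores at 0.70 (precursor and premyelinating), 0.30 (mature), 0.53 (astrocyte), 0.58 (microglial) and 0.36 (thalamic).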

How the data were processed

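Per the labels and the study's methods, poly-A RNA of about 30 mg of dissected tissue was sequenced without strand information. The authors aligned reads with STAR 2.3.0e to GRCm38, counted uniquely mapped reads per RefSeq gene with HTSeq 0.6.1 ignoring strand, kept genes averaging over 4 CPM and deposited raw counts.

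From these deposited counts, TMM-scaled CPM, log2 CPM (prior count 2) and fold changes were computed with edgeR 4.0.16 (R 4.3.3). The main test, as in the study, was a likelihood ratio test in a model of 8 groups of region and genotype over all 53 libraries, with Benjamini-Hochberg FDR over 12372 genes. SE came from the Fisher information. Alternatives used edgeR's quasi-likelihood test, DESeq2 1.42.0, limma 3.58.1, other filters, covariates and left-out animals. Regions of one animal were paired by mouse number. Same-mouse libraries correlated weakly, at a mean r of 0.09 to 0.186 per pair of regions, and the block correlation was 0.14. Scores are mean centred log2 CPM of marker lists. The tests were tried on simulated counts first.

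The 7 genes and all lists were chosen with earlier results of these data known. Named are the 7 genes, the 3 genes most correlated with each, and up to 4 called genes per list and region with the smallest FDR, apart from a few results that are not reported here. Zfp24 was matched by its older symbol Zfp191. Exon lengths come from GENCODE M21, promoters from RefSeq for the 4 of 7 genes in that table.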

Additional observations from a re-analysis of the deposited data

Results flagged for a closer look

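Of 56 groups (7 factors in 8 groups of region and genotype) tested for a single library apart from the rest with Dixon's criterion, 2 stood out, where chance gives about 1 in 20. In wild-type striatum, Zfp488 was at 9.99 CPM in mouse 7267059 and between 4.21 and 5.95 CPM in the other 7 mice. This library also had the highest thalamic marker score, 2.84. In SCA3 brainstem, Sox8 was at 114.1 CPM in mouse 9083513 and between 86.8 and 94.6 CPM in the other 5 mice, where its thalamic marker score was 0.06. Both samples are included in the values above, except in those said to leave out libraries or mice or to use 1 number series.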

How the results depend on the processing

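Of the 7 factors in 4 regions, 8 of 28 genotype values were called, and 6 to 8 when 1 mouse was left out. Since the genes were chosen on this contrast, these counts and their changes are descriptions, and nothing is read from them. The count was 13 with the mature oligodendrocyte marker score as a covariate and 5 among mice of the number series of mouse 9083513. The share of all genes called in striatum also moved in these fits, from 7.54% to 8.27% with the score and 0.242% in that series. In brainstem the share was 1.92%, 2.99% with the score and 1.96% in that series, where 2 factors were called in brainstem. No called value of a factor changed its direction under any alternative, while some that were not called did, such as Nkx6-2 in cortex and striatum. With the mature score, Myrf in brainstem went from -0.11 to 0.19 and Sox10 in striatum from -0.23 to 0.04. Of 42 region tests 38 passed, 34 to 37 without 1 mouse. Among the region tests the only reversal was Zfp488 in brainstem over striatum, which was not called and became 0.07 (edgeR FDR 0.7) without the 5 libraries with thalamic markers. That comparison and those within number series were chosen after the data were seen.

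For the lists, calls are totalled over the 4 regions. The 11 calls of mature oligodendrocyte markers became 3 with libraries of RIN 7 or higher, 7 in fits of the compared groups alone, 35 with their own score as a covariate, which changes the question, 6 with the thalamic score as a covariate, 3 without the libraries with thalamic markers and 3 in the series of mouse 9083513. Without 1 mouse the range was 5 to 14, with 6, 5, 7 and 6 calls without SCA3 mouse 7267054, SCA3 mouse 7267056, wild-type mouse 7267059 and SCA3 mouse 9083515. The 4 calls of precursor and premyelinating markers became 11 with the mature score, 2 without the libraries with thalamic markers and 1 in the series of mouse 9083513, and 3 to 4 without 1 mouse. The 2 calls of partner and regulator genes became 4 with RIN, 0 in the compared groups alone, 5 with the mature score, 1 with the thalamic score, 4 with the number series as a covariate, 1 without the libraries with thalamic markers, 0 in the series of mouse 9083513 and 6 in that of mouse 7267054, and 0 to 6 without 1 mouse (0 without SCA3 mouse 7267054, wild-type mouse 9083373 or SCA3 mouse 9083515, 1 without SCA3 mouse 7267056 or wild-type mouse 9083372, 5 and 6 without wild-type mice 9083371 and 9082857). The 8 calls of signal and receptor genes became 3 with RIN 7 or higher, 5 without the libraries with thalamic markers and 3 in the series of mouse 9083513, and 3 to 9 without 1 mouse (3 without SCA3 mouse 7267054, and 5 without wild-type mouse 7267055, 7267058 or 7267059 or SCA3 mouse 7267056, 9083513, 9083514 or 9083515). The causes were not tested. With the mouse as a random replicate block, the counts of members and region tests were 8 and 38, and Mal in brainstem and Fa2h and Smo in striatum were not called (limma-voom FDR 0.057, 0.059 and 0.055), nor were they without the block. The 7 genes had at least 72 raw counts in every library.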
